A study of Homo sapiens with 6 samples.

Results

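RNA polymerase III transcribes tRNA genes, the 5S rRNA gene and other short noncoding RNA genes. At tRNA genes the large factor TFIIIC (subunits named GTF3C) binds promoter elements inside the gene and places TFIIIB at the start site, which in turn recruits the polymerase (subunits named POLR3). BRF1 and BRF2 are alternative subunits of TFIIIB, BRF1 at tRNA and 5S genes and BRF2 at genes with an upstream promoter such as U6. Circular RNAs (circRNAs) of these genes form when the 3′ end of an exon is joined to the 5′ end of the same or an earlier exon, which leaves a ring with no free ends.

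The circRNAs described here are all those with a single host gene whose symbol starts with GTF3C, POLR3 or BRF plus a digit. They number 16 of the 9857 circRNAs in the table, from 10 of 3742 single host genes. GTF3C2 was chosen from its difference between cadmium and control in these libraries, so its levels are given as a description, with no test. The other genes were taken by name. The libraries come from BEAS-2B, an immortalised cell line from human bronchial epithelium, kept either in 2.0 µM cadmium (3 libraries) or at 0.0 µM (3 libraries) for 20 weeks. Total RNA was freed of rRNA and treated with RNase R, which digests linear RNA, before stranded sequencing. Whether libraries of 1 group stem from different cultures is not stated in the labels, and the p-values therefore cover the spread between these libraries alone, which may be technical. A circRNA is counted by the reads that cross its back-splice junction. Each is counted at 1 join, so no length term applies, and levels are given as CPM, junction reads per 1000000 reads of the library after TMM scaling.

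GENCODE 29 holds 18 protein-coding genes under these names, and 10 of them host a listed circRNA. Those described here are GTF3C1, GTF3C2, GTF3C3 and GTF3C5 of TFIIIC, POLR3A, POLR3B and POLR3C of the polymerase, and BRF1 and BRF2 of TFIIIB. GTF3C2, BRF2, GTF3C5 and POLR3B each had 1 listed circRNA, POLR3A had 3, and GTF3C1, GTF3C3, POLR3C and BRF1 had 2 each.

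The joined sequences show which exon ends meet in each circle and which circles of a gene share an end. They were read from GENCODE 29 transcripts (GRCh38), 5′ to 3′ on the strand of the transcript. Lower case marks the last 15 bases of the circle's last exon and capitals the first 15 bases of its first exon.
GTF3C2 novel_circ_0024095: agaattgctgattcgAGACAAAGTCTTGCT
GTF3C1 hsa_circ_0038757: gtaagacaaagaaagGTATGAAGAAATTGA
GTF3C1 hsa_circ_0038758: ctgagggaagagctgGTATGAAGAAATTGA
GTF3C3 hsa_circ_0057602: tagagatatggcaaaGAGAAACATCAGATG
GTF3C3 novel_circ_0023177: tagagatatggcaaaGAGAAAAGGCCTCGG
POLR3A novel_circ_0001468: tgtgcggctccaaagCTAACCGTGGTTTCT
POLR3A novel_circ_0001469: tgtgcggctccaaagATGTTACAATCCAGA
POLR3C hsa_circ_0003693: acgtaatgtcaacaaGAAATTCCCAAAACA
The GTF3C1 circles start at the same exon (exon 2) and close from exon 6 or exon 5. The GTF3C3 pair and the POLR3A pair each close from the same exon end and differ in the exon they start with. Circles that share an end share part of their junction sequence.

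GTF3C2 encodes a subunit of the TFIIIC module that binds the distal promoter element of tRNA genes. The GTF3C2 circle (chr2:27350314-27350632, minus strand) is a single exon of 319 bases. In GENCODE 29 this exon is exon 2 of the 3 exons of transcript GTF3C2-204 and lies wholly in its 5′ UTR, with 0 coding bases. The principal transcripts GTF3C2-201 and GTF3C2-202, of 19 exons each, do not contain it. In both of them the circle lies in intron 1, upstream of the coding start at 27343554. GTF3C2-204 is outside the basic set, the part of GENCODE that keeps representative transcripts. Among 295 single-exon circRNAs that match a whole GENCODE 29 exon, 5 (1.69%) used an exon found only outside the basic set and 10 (3.39%) had no overlap with any coding segment. Both held for 2 of them (0.68%), the GTF3C2 circle and hsa_circ_0001340 of TMCC1, the latter named after its values were seen. By contrast, 13 of the other 15 members were matched to a principal transcript with the same spliced length, and every base of these 13 was coding.

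Part of the GTF3C2 exon recurs across the transcriptome. Of its 300 overlapping stretches of 20 bases, 89 (29.7%) were found in the transcripts of 10 or more other genes, on either strand. These stretches began at positions 7 to 98, counted from 1 at the 5′ end of the exon. The stretch at position 86 occurred in 705 other genes, while after position 98 no stretch occurred in more than 4. Letters of this kind are typical of an Alu repeat read in antisense, the Alu family being an abundant human repeat that descends from a gene of RNA polymerase III. That name rests on general knowledge, and no repeat annotation was used here. Among the 295 single-exon circRNAs, 12 (4.1%) had any such stretch, and 1, the GTF3C2 circle itself, reached a share of 29.7%. Of the other members with a sequence, hsa_circ_0057602 of GTF3C3 had 3.0% of its stretches in 10 or more genes and the remaining 12 had 0.0%. In the GTF3C2 junction above the capitals are the first 15 bases of the exon, and the recurring stretches begin within them, at position 7. How reads with several matches were treated is not stated in the labels or file headers, and the part of this in the GTF3C2 counts was not tested.

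**Figure D1:**
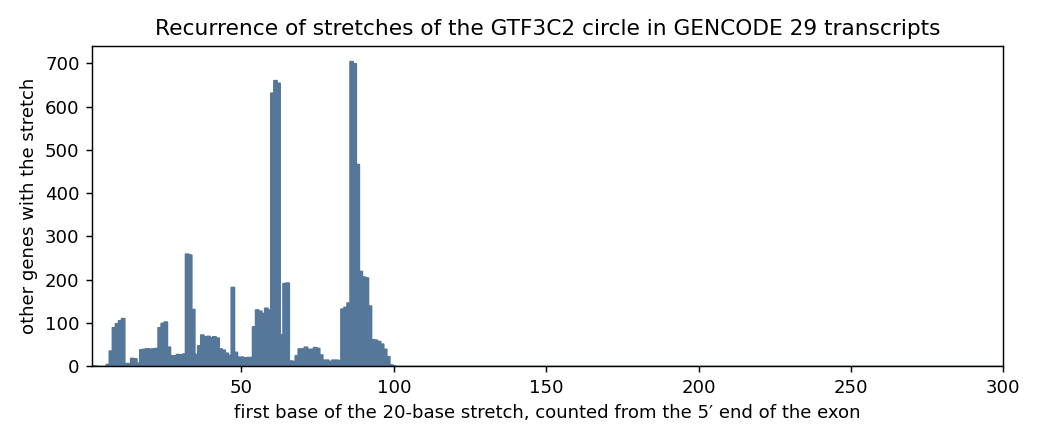
Number of other genes (y axis) whose GENCODE 29 transcripts hold each 20-base stretch of the GTF3C2 exon, by the position of its first base (x axis). The recurring stretches lie between positions 7 and 98, with a peak of 705 genes at position 86, and after position 98 no stretch recurs in more than 4 other genes.

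Library totals ran from 133185 to 225769 junction reads. The table holds no value of 1, so a listed 0 cannot be told from a single read. The files also give reads from each locus outside the junction, called non-junction reads, and the junction share is 2 times the junction reads divided by that product plus the non-junction reads. Over all circRNAs with non-junction reads in every library, the weighted share was 46.1% and 48.9% in control replicates 1 and 3 and between 29.2% and 31.7% in the other 4 libraries, so this pair of controls stood apart. None of the markers looked for (8 of bronchial epithelium, 7 of fibroblasts and mesenchyme, 4 of immune cells and 3 of endothelium) is a host of a listed circRNA, so these data do not check the cell type. In bulk RNA, fewer cells with a circRNA and less of it per cell cannot be told apart.

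GTF3C2 gave the most abundant circRNA of the set. Its 417 junction reads made up 37.9% of the 1100 reads of all 16 members, and its mean level was 2.85 times that of the next, hsa_circ_0007755 of POLR3C. Over the whole table it ranked 341 by mean CPM, and among 326 single-exon circRNAs it ranked 29 by mean TPM, the same scale without TMM factors. The median of the 16 members was 36.5 CPM, close to the 41.4 CPM of all listed circRNAs. In each of the 6 libraries GTF3C2 stood above every other member. The reads, mean levels and ranks above pool both groups, so they hold the cadmium levels for which the gene was chosen. In controls alone the mean was 283 CPM for GTF3C2 and 166 CPM for hsa_circ_0007755.

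The GTF3C2 circle was counted 57, 46 and 43 times in control replicates 1 to 3 and 63, 98 and 110 times in cadmium replicates 1 to 3. In CPM these were 256, 334 and 259 in controls and 466, 710 and 702 with cadmium. All 3 cadmium libraries lay above all 3 controls, and cadmium replicate 1 stood nearest to them. The means were 283 ± 44.0 and 626 ± 139 CPM (SD, n = 3 each), 2.21 times as much with cadmium (log2 fold change 1.16, SE 0.22). This difference is what the gene was chosen for, and groups that do not overlap were seen for 15.3% of all 6182 tested circRNAs, with cadmium the higher for 7.52%. A log2 fold change above 1 was seen for 4.43%. With control replicates 1 and 3 left out, it was 0.90 for GTF3C2, against a single control library. The authors' deposited table gives a log2 fold change of 1.03 for this circle. Counting alone leaves a 95% exact binomial interval of 364 to 605 per 1000000 reads in cadmium replicate 1 and 244 to 445 in control replicate 2, so these nearest libraries overlap in counting error. Such intervals cover counting error only, since without molecular identifiers several reads can come from 1 molecule.

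**Figure D2:**
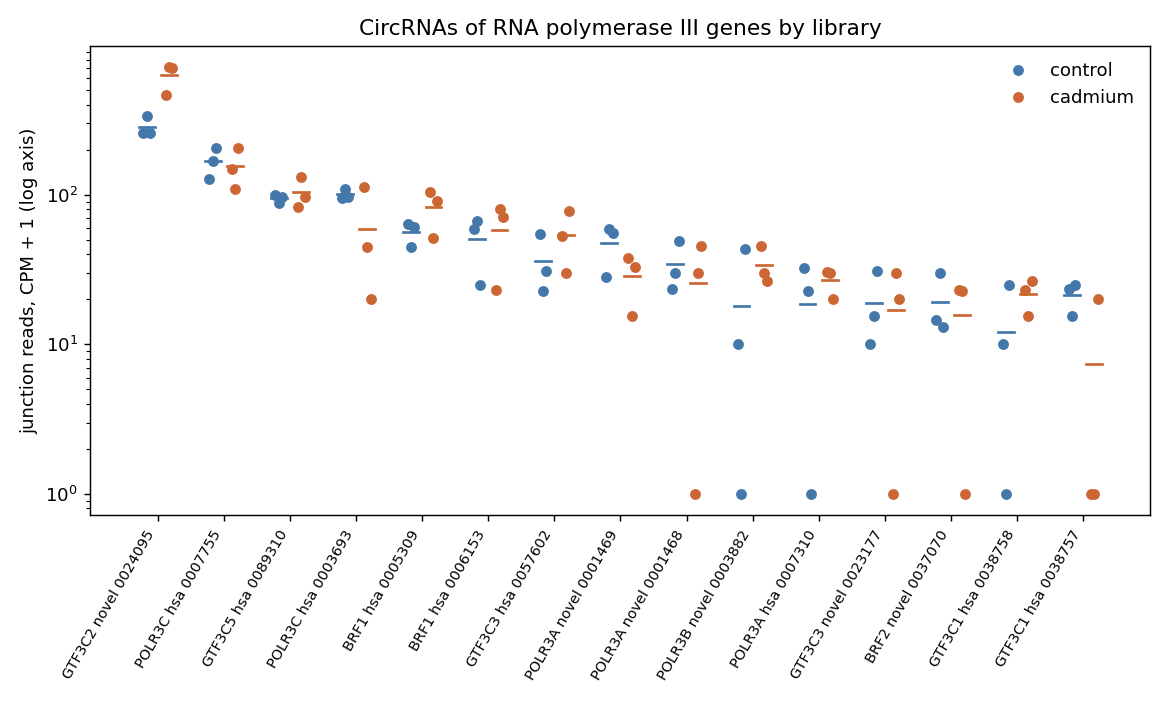
Junction reads in CPM plus 1 (log axis) for 15 of the 16 circRNAs, ordered by mean level, with 1 point per library and a line at each group mean (control blue, cadmium orange). The GTF3C2 points lie at 256 to 334 CPM in controls and 466 to 710 with cadmium, while the groups overlap for the circRNAs of the other genes. Points at the bottom are libraries with a listed 0.

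The number of non-junction reads was not itself used to choose GTF3C2. Such reads can come from the same circle, so they may not be independent of its junction reads, which was not tested. For GTF3C2, control replicates 1 to 3 had 11, 11 and 3 non-junction reads and the cadmium libraries 6, 18 and 18. Per 1000000 such reads they were 17.1 ± 6.93 in controls against 24.1 ± 12.1 in cadmium libraries (SD, n = 3 each, difference 6.98, two-sided exact permutation p = 0.4). The groups overlapped, and with 3 libraries against 3 the smallest p this test can give is 0.1. The difference was 1.89 without cadmium replicate 2, 3.25 without control replicate 3 and 13.6 without cadmium replicate 1.

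Junction reads dominated the GTF3C2 locus. The junction share of the circle was 91.2%, 89.3% and 96.6% in control replicates 1 to 3. With cadmium it was 95.5%, 91.6% and 92.4%, so the groups overlapped, with means 0.78 percentage points apart. Since this share holds the junction reads for which the gene was chosen, it is given without a test. The mean share of 92.8% stood above that of 98.2% of 5274 tested circRNAs with such reads in every library, whose median was 47.2%. Against 209 single-exon circRNAs with values in every library (median 55.3%), it stood above 94.3%. The exon belongs to 1 annotated transcript outside the basic set, and the way non-junction reads were counted is not stated in the labels or file headers.

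The other members spread over the whole range of this share. The POLR3C circle hsa_circ_0007755 had a mean share of 84.3% and the other POLR3C circle 60.1%. POLR3B stood at 61.9%, and the BRF1 circles at 53.0% in controls and 47.0% with cadmium for hsa_circ_0005309 and a mean of 36.5% for hsa_circ_0006153. The lowest were the GTF3C1 circles at 9.0% and 8.0%, for which most reads of the locus were non-junction reads. In GTF3C1 hsa_circ_0038757 of cadmium replicate 3, for example, 3 junction reads stood beside 150 others. For 13 of 16 members the mean share was lower with cadmium than in controls, beside 79.5% of the 5274 tested circRNAs. The sets are unlike, since the 16 include 7 untested circles without a share in every library. For hsa_circ_0038757 the cadmium mean rests on 1 library. The part of the high shares of control replicates 1 and 3 in these lower means was not tested.

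**Figure D3:**
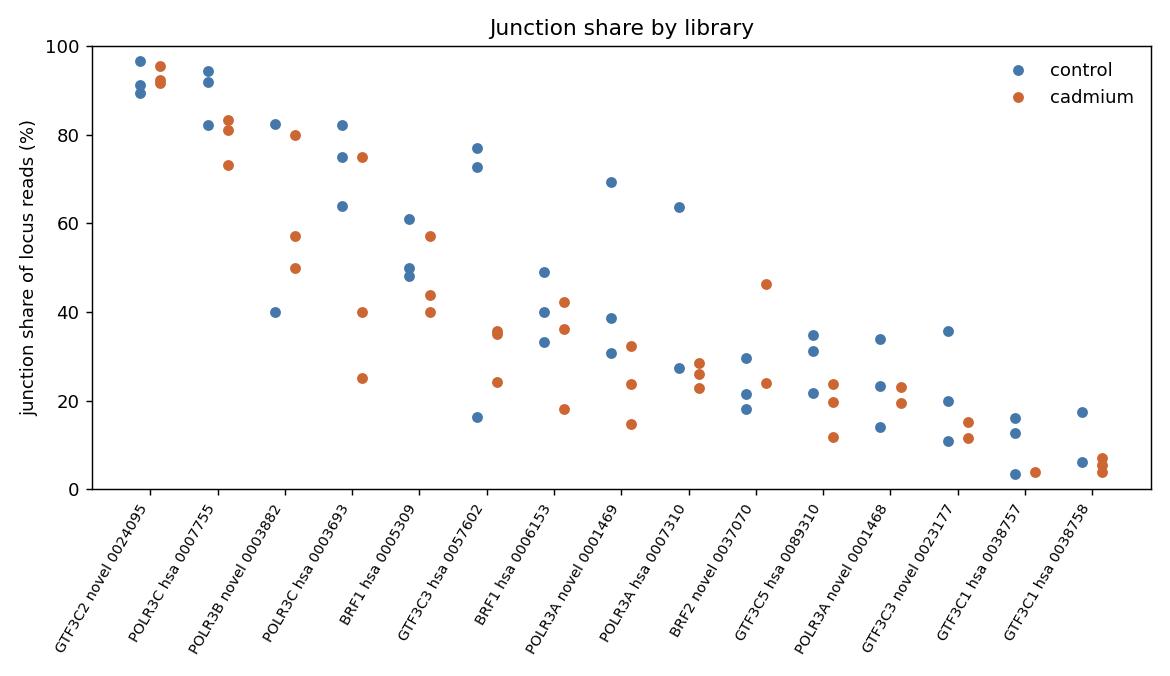
Junction share of the reads at each locus in percent (y axis) for 15 of the 16 circRNAs, ordered by mean share, with 1 point per library that lists the circRNA (control blue, cadmium orange). GTF3C2 lies between 89.3% and 96.6% in all 6 libraries, and the GTF3C1 circles lie below 20% in each library listed.

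Of the 16 members, 9 passed the filter on low counts and were tested, among them GTF3C2. The 7 others had 14 to 28 reads over all libraries, at most 8 in any, and each had at least 1 library at 0. Among all 6182 tested circRNAs, 5 (0.0809%) passed an edgeR adjusted p of 0.05, of which 5 were lower with cadmium and 0 higher. An unadjusted p under 0.05 was seen for 507 (8.2%). Of the 8 tested members other than GTF3C2, 0 passed by edgeR's adjusted p and 0 had an unadjusted p under 0.05, and limma also called 0. DESeq2 gave an adjusted p to 2 of the 8, both 0.998, and left 6 without one. Log2 fold changes were above 0 for 4 and below 0 for 4, from -0.80 to 0.52, with a median of 0.01, which was also the median over all tested circRNAs. For none of the 8 were the groups of libraries apart, where 15.3% of all tested circRNAs had groups that did not overlap.

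Among the other TFIIIC genes, GTF3C5 encodes a DNA-binding subunit of the factor. Its circle hsa_circ_0089310 (chr9:133042087-133043926, exons 2 to 3) stood at 98.9, 87.1 and 96.3 CPM in control replicates 1 to 3 and 81.4, 130 and 95.7 CPM with cadmium. The values of the groups interleave, and the log2 fold change was 0.11 (SE 0.34, edgeR adjusted p = 0.958). GTF3C3 encodes a subunit that contacts TFIIIB. Its circle hsa_circ_0057602 (chr2:196789204-196793152, exons 3 to 6) stood at 54.0, 21.8 and 30.1 CPM in controls and 51.8, 29 and 76.6 CPM with cadmium (log2 fold change of 0.51 with an SE of 0.56, adjusted p = 0.850 by edgeR). The counts behind these levels were 3 to 12 reads per library. The shorter GTF3C3 circle novel_circ_0023177 starts with exon 4, has a deposited spliced length of 290 bases against 482 for exons 4 to 6 together, and had 16 reads in all. GTF3C1 encodes the largest TFIIIC subunit, and its circles had 14 reads (hsa_circ_0038757) and 15 reads (hsa_circ_0038758) in all. For the former, control replicates 1 to 3 held 5, 2 and 4 reads and cadmium replicates 0, 0 and 3, too few for a test.

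In the polymerase, POLR3C gave the most reads after GTF3C2. POLR3C encodes a subunit of the subcomplex that acts in initiation. Its circle hsa_circ_0007755 (chr1:145839890-145842477) stood at 126, 167 and 205 CPM in control replicates 1 to 3 and 148, 109 and 204 CPM with cadmium (log2 fold change of -0.09 with an SE of 0.31, adjusted p = 0.968 by edgeR). The groups overlapped over nearly their whole range. The shorter circle hsa_circ_0003693 (chr1:145839890-145841071, exons 12 to 14) has the same lower coordinate. It stood at 94.4, 109 and 96.3 CPM in controls and at 111, 43.5 and 19.1 CPM with cadmium. Cadmium replicate 1 was above every control and the other 2 cadmium libraries were below every control. The log2 fold change was -0.80 (SE 0.49, edgeR adjusted p = 0.698). As a share of both POLR3C circles, the shorter made up 42.9%, 39.5% and 32.0% in control replicates 1 to 3 against 42.9%, 28.6% and 8.6% with cadmium (difference of -11.4 percentage points, two-sided exact permutation p = 0.4).

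The deposited strand of both POLR3C circles is minus, whereas GENCODE 29 places the gene on the plus strand. Such a mismatch occurred for 15 of 9532 single-host circRNAs (0.16%), so 2 of the 15 are members. For hsa_circ_0007755 no GENCODE 29 transcript has both ends on exon bounds, and no junction is printed for it. The junction printed for hsa_circ_0003693 and its exon numbers follow the plus strand of the gene, not the deposited strand.

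POLR3A encodes the largest subunit, which holds part of the catalytic site. Its only tested circle, novel_circ_0001469 (chr10:78002197-78007866, exons 15 to 17), stood at 27.0, 58.0 and 54.1 CPM in control replicates 1 to 3 and 37.0, 14.5 and 31.9 CPM with cadmium. Both ranges overlap (log2 fold change of -0.68 with an SE of 0.64, adjusted p = 0.825 by edgeR). The circle novel_circ_0001468, from exons 16 to 17, and hsa_circ_0007310, from exons 25 to 28, had 28 and 21 reads in all. POLR3B encodes the second-largest subunit, and its circle novel_circ_0003882 (exons 7 to 9) had 23 reads.

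For TFIIIB, BRF1 gave 2 circles that share no exon. The circle hsa_circ_0005309 (chr14:105252507-105272894, exons 3 to 5) stood at 62.9, 43.5 and 60.2 CPM in control replicates 1 to 3 and 104, 50.7 and 89.3 CPM with cadmium (log2 fold change of 0.52 with an SE of 0.42, adjusted p = 0.784 by edgeR). A pair of cadmium libraries stood above every control, and cadmium replicate 2 lay among the controls. The other, hsa_circ_0006153 (chr14:105226069-105226760, exons 8 to 10), stood at 58.5, 65.3 and 24.1 CPM and at 22.2, 79.7 and 70.2 CPM (log2 fold change of 0.23 with an SE of 0.54, adjusted p = 0.939 by edgeR). In each group 1 library was far below the other 2. BRF2 had a single-exon circle with 15 reads in all.

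**Figure D4:**
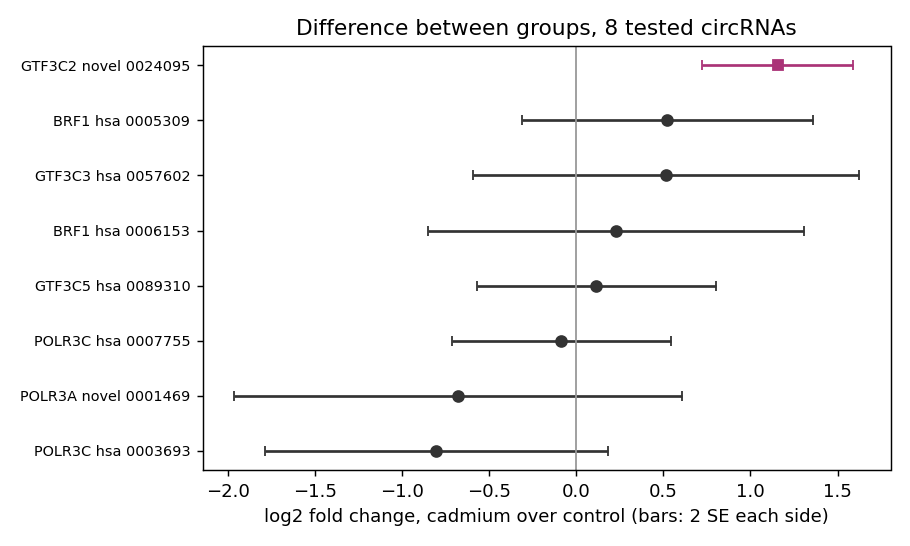
Log2 fold change of cadmium over control (x axis) for 8 of the 9 tested circRNAs, with bars of 2 SE on each side. The bars of the 7 circles from other genes cross 0, and the square for GTF3C2, at 1.16, is a description because the gene was chosen for it.

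An interval of 2 SE ran from -0.57 to 0.80 for GTF3C5, from -0.71 to 0.54 for POLR3C hsa_circ_0007755 and from -1.79 to 0.18 for POLR3C hsa_circ_0003693. For the GTF3C3 circle it ran from -0.60 to 1.63 and for POLR3A novel_circ_0001469 from -1.965 to 0.61. For the BRF1 circles it ran from -0.31 to 1.36 (hsa_circ_0005309) and from -0.85 to 1.31 (hsa_circ_0006153). In order of mean level, GTF3C2 was followed by POLR3C hsa_circ_0007755 at 160 CPM and GTF3C5 at 98.3 CPM. The range over libraries of GTF3C2 lay above that of the POLR3C circle, and from POLR3C down the range of each tested circle overlapped that of the next.

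Summing reads per host gene gave 7 tested hosts. Of all 3008 tested host genes, 7 (0.233%) passed the test, and of the 6 tested members other than GTF3C2, 0 did by edgeR's adjusted p, 0 had an unadjusted p under 0.05 and limma called 0. The BRF1 sum stood at 107 ± 18.5 CPM in the 3 controls and 142 ± 16.4 CPM in the 3 cadmium libraries (SD). This log2 fold change of 0.39 had an SE of 0.31 and an adjusted p of 0.630 in edgeR. For the POLR3C sum, 273 ± 44.1 and 216 ± 54.5 CPM were measured (SD, n = 3 each), with a log2 fold change of -0.32, an SE of 0.25 and likewise an adjusted p of 0.630 in edgeR. For the 3 POLR3A circles together the log2 fold change was -0.29, and for the 2 GTF3C3 circles 0.34 (adjusted p in edgeR 0.766 and 0.786).

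Circles of genes that work with RNA polymerase III were looked at as a list of 33 cofactors, shared subunits and regulators. It had 45 listed circRNAs from 13 hosts, of which 20 from 6 hosts were tested. Of the 20, 0 were called in either direction, beside 0.0809% of all 6182 tested circRNAs. Log2 fold changes were above 0 for 8 and below 0 for 12 (median -0.14, beside 0.01 over all tested). In this list and in the 2 that follow, limma also called 0. The most abundant were from RBL1, a retinoblastoma-like repressor gene, and NF1, a Ras GTPase-activating gene. The RBL1 circles hsa_circ_0060237 and hsa_circ_0060236 had log2 fold changes of -0.38 and 0.01, and hsa_circ_0007542 of NF1 had -0.14 (edgeR adjusted p = 0.748, 0.997 and 0.917). At an unadjusted p under 0.05 there was 1 of the 20, beside 8.2% of all tested circRNAs, namely hsa_circ_0042881 of NF1. It stood at 141 ± 62.4 CPM without cadmium and 71.6 ± 12.7 CPM with it (SD, n = 3 each), a log2 fold change of -0.93 with an adjusted p of 0.542 in edgeR, and was named after its values were seen.

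The tRNAs made by the polymerase are trimmed, modified and exported by a further set of proteins. Of 53 such genes, 16 hosted 46 listed circRNAs, and 23 from 12 hosts were tested. Of the 23, 0 were called, beside 0.0809% of all tested circRNAs (15 above 0 and 8 below, median log2 fold change 0.24). The most abundant came from CDKAL1, a tRNA-modifying methylthiotransferase gene (hsa_circ_0001582, log2 fold change -0.11), from the tRNA cytosine methyltransferase gene NSUN2 (hsa_circ_0001466, 0.02) and from the Elongator gene ELP3 (hsa_circ_0001785, -0.19). Their edgeR adjusted p values were 0.942, 0.989 and 0.876. An unadjusted p under 0.05 was seen for 2 of the 23, beside 8.2% of all tested circRNAs. One was novel_circ_0033814 of the exportin gene XPO5 (15.3 ± 15.8 CPM in controls and 60.4 ± 8.48 CPM with cadmium, SD, n = 3 each, edgeR adjusted p = 0.526). The other was novel_circ_0034496 of the pseudouridine synthase gene PUS7 (3.00 ± 5.19 and 64.7 ± 18.4 CPM, SD, n = 3 each, edgeR adjusted p = 0.362). Both were named after their values were seen.

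Subunits and general factors of RNA polymerases I and II, with Mediator genes, were taken by name, leaving out the shared subunits. Their symbols start with POLR1, POLR2, GTF2, or TAF or MED plus a digit. A name alone does not show that a gene is a general factor. This list gave 61 listed circRNAs from 26 hosts, 39 of them tested. Of the 39, 0 were called, beside 0.0809% of all tested circRNAs (21 above 0 and 18 below, median log2 fold change 0.03). The highest were hsa_circ_0000443 and hsa_circ_0000442 of the Mediator kinase module gene MED13L and hsa_circ_0000741 of POLR2A, which encodes the largest subunit of RNA polymerase II, at log2 fold changes of -0.24, -0.24 and 0.03 (edgeR adjusted p = 0.680, 0.784 and 0.974). At an unadjusted p under 0.05 stood 1 of the 39, beside 8.2% of all tested circRNAs. It was hsa_circ_0006855 of TAF6L (log2 fold change 0.67, edgeR adjusted p = 0.600), named after its values were seen.

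Circles near GTF3C2 on chromosome 2 were looked at for their direction. Within 2000000 bases on either side, 34 others are listed and 24 were tested, from 10 single host genes. By edgeR's adjusted p 0 of the 24 passed (lowest 0.379), beside 0.0809% of all tested circRNAs. An unadjusted p under 0.05 was seen for 2, beside 8.2% of all tested circRNAs, and limma called 0. Log2 fold changes were above 0 for 12 and below 0 for 12, with a median of 0.03. On the lower side the nearest tested circle was novel_circ_0024086 of the centromere gene CENPA (chr2:26792131-26793893, log2 fold change 0.08, SE 0.46). On the upper side it was hsa_circ_0000985 (chr2:27599583-27601442), assigned to ZNF512 and an unnamed gene, at -0.08 (SE 0.35). Groups that did not overlap were seen for 6 of the 24, beside 15.3% of all tested circRNAs. Those 6 went both ways, from -3.10 for novel_circ_0024129 of the phosphatase gene PPP1CB to 1.72 for novel_circ_0024149 of WDR43, at 1425 and 1573 kb and named after their values were seen.

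**Figure D5:**
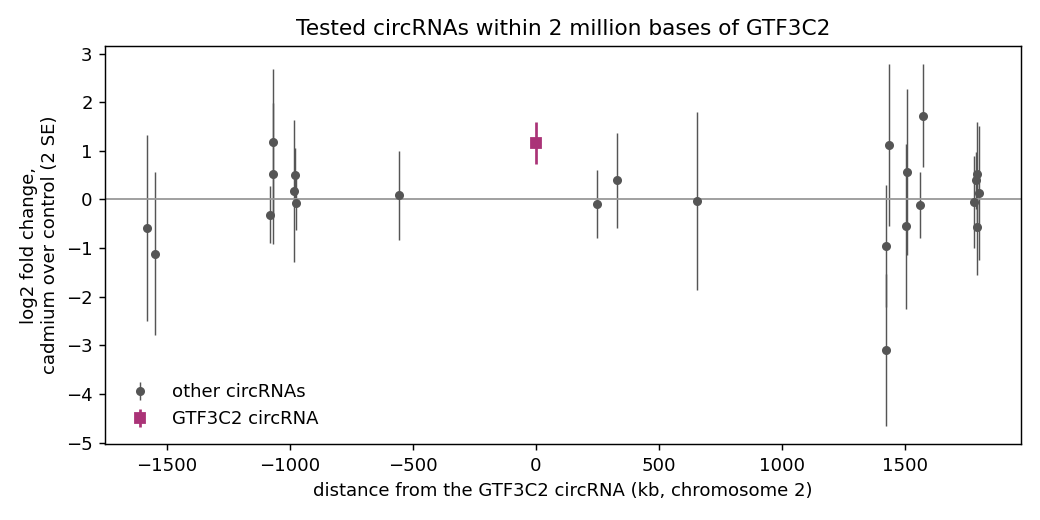
Log2 fold change of cadmium over control with bars of 2 SE (y axis) against the distance from the GTF3C2 circRNA in kilobases (x axis) for the 24 other tested circRNAs of this part of chromosome 2. The nearest circles on both sides lie close to 0, at 0.08 and -0.08, and the GTF3C2 circle is the square at 1.16.

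The circRNAs whose log2 CPM followed that of GTF3C2 most closely over the 6 libraries were found among 4161 tested circRNAs with a mean of at least 50 CPM. They were hsa_circ_0007766 of the receptor tyrosine kinase gene ERBB2 (Pearson r = 0.995), hsa_circ_0007788 of NMRAL1 (0.985), novel_circ_0015213 of SIPA1L3 (0.981), hsa_circ_0006078 of AACS (0.979) and hsa_circ_0000337 of PPFIA1 (0.978). They were ranked on the same 6 libraries, so the values are a description. Likeness in shape was not likeness in size. The ERBB2 circle went from 328, 348 and 331 CPM in controls to 362, 384 and 383 CPM with cadmium, and the SIPA1L3 circle from 22.5, 21.8 and 18.0 to 51.8, 109 and 109 CPM. Among members above 50 CPM, r with GTF3C2 was 0.43 and 0.30 for the BRF1 circles, 0.40 for GTF3C5, -0.16 for POLR3C hsa_circ_0007755 and -0.79 for POLR3C hsa_circ_0003693. Of the 4161 compared, 49.6% had r above 0. The GTF3C2 levels hold the group difference the gene was chosen for, so r partly restates each circle's own group difference.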

How the data were processed

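In the table of counts deposited by the authors, each value is the number of reads over a circRNA's back-splice junction. The deposited TPM values are those counts per 1000000 reads of the library total, with no length term, and served 1 alternative. Positions, spliced lengths and reads that do not cross the junction come from the authors' deposited annotation table. The authors' deposited log2 fold changes were read for 1 value, and the p-values the authors deposited beside them were not used. The tools named per the submitters' processing notes are DESeq 1.10.1, Bowtie and Bowtie2 2.2.8, with hg19 as the build. Which program called the circRNAs is not stated there. The positions follow GRCh38: 98.0% of exonic starts and 98.1% of ends lie on GENCODE 29 exon bounds. Positions are counted from 1. RNase R digestion can differ between libraries, so junction reads compare circRNAs with each other, not with linear transcripts.

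Groups came from the labels' treatment and replicate numbers from the titles. Columns named con and CdCl were matched to the titles with C and T of the same number. Junction counts were tested in R 4.3.3 with edgeR 4.0.16 by quasi-likelihood (TMM factors, filterByExpr with minimum count 5 and minimum total 15, Benjamini-Hochberg adjustment over all circRNAs tested). SE was taken as the absolute log2 fold change divided by √F. Reads summed per host gene were tested likewise. Exact permutation tests compared single values. DESeq2 1.42.0, limma 3.58.1 on log2(TPM + 1), other size factors and filters, the replicate block and leaving out libraries were alternatives. The tests were tried on simulated data. Of the 16 members, 1 is counted in the totals and not reported by itself here. Named circRNAs are the other members, the 3 most abundant of each list, the 5 most alike to GTF3C2 and its neighbours within 2000000 bases, with others marked where they stand. The members and lists were chosen with earlier results of these data known.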

Additional observations from a re-analysis of the deposited data

How the results depend on the processing

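The log2 fold change of the GTF3C2 circRNA was 1.16. The gene was chosen for this difference and its groups did not overlap, so its sign in the alternatives gives no support. Over 15 alternatives the value ran from 0.90 with control replicates 1 and 3 left out (chosen after seeing the data) to 1.29. Leaving out 1 library gave 1.04 to 1.29. The 7 other tested members named here and 4 host sums had 149 alternative fits, and none of the 140 that gave an adjusted p passed (lowest 0.510). DESeq2 gave none in the remaining 9. Signs turned in 6 fits. For hsa_circ_0006153 of BRF1 (0.23) the value was -0.18 with control replicates 1 and 3 left out, and leaving out 1 library gave -0.107 to 0.561, with -0.079 without cadmium replicate 2. The range was -0.112 to 0.215 for GTF3C5 and -0.372 to 0.085 for POLR3C hsa_circ_0007755 (0.079 without control replicate 3). Other values kept their sign and moved by over 1.5 times when 1 library was left out: hsa_circ_0003693 of POLR3C ran from -1.70 without cadmium replicate 1 to -0.38 without cadmium replicate 3, hsa_circ_0057602 of GTF3C3 from 0.11 without cadmium replicate 3 to 0.99 without control replicate 1, hsa_circ_0005309 of BRF1 from 0.28 to 0.74 and novel_circ_0001469 of POLR3A from -0.99 to -0.41. The sums ran from 0.03 to 0.49 for GTF3C3, from -0.45 to -0.21 for POLR3A, from -0.50 to -0.15 for POLR3C and from 0.26 to 0.51 for BRF1. The difference in GTF3C2 junction share ran from -0.755 to 2.90 percentage points, turning below 0 without control replicate 2 or without cadmium replicate 1 (-0.37). The difference in GTF3C2 reads that do not cross the junction stayed above 0, from 1.89 to 13.6 with 1 library left out (per 1000000 junction reads 47.8, exact permutation p = 0.3). Counts over all circRNAs moved from 5 to 3 with control replicates 1 and 3 left out, and to 0 to 13 when 1 library was left out (0 without control replicate 1, 13 without control replicate 2). Over host genes they moved from 7 to 4 with limma on log2(TPM + 1), to 3 with control replicates 1 and 3 left out, and to 3 to 13 when 1 library was left out (13 without cadmium replicate 3).

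The labels give both groups the same replicate numbers. Over circRNAs, deviations of same-numbered libraries from their group means had correlations of 0, 0.022 and 0.052. Other pairs ran from -0.045 to 0.026, and not every library was closest to its own number. Deviations from means of 3 libraries at low counts cannot settle whether the numbers pair the libraries. With the replicate block, 4 circRNAs and 6 host genes passed, and GTF3C2 was at 1.13. Depth limits the other members, with 2 to 34 reads per library where tested.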
